A study of Mus musculus with 4 samples.

Results

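Acetylated histone H3 at lysine 27 (H3K27ac) was compared between the EGFP- cells of the limb and those of the trunk of Col2a1-EGFP mouse fetuses at E14.5, which are the cells of either tissue that did not switch on a reporter of the cartilage collagen gene Col2a1. The members were all intervals of the 2 EGFP- peak lists, of the 4 lists in the series: 34360 limb and 30716 trunk intervals out of 142206. Rows of a list that shared one start and end were joined into 1 interval, and intervals of the 2 lists that overlapped by 1 bp or more were merged, which gave 41421 regions, each limb-only, trunk-only or shared. A region or interval was called promoter when it touched the 2 kb before or the 500 bp after a protein-coding start site, and distal otherwise. A gene was then described by the intervals at its own promoter windows and by the distal regions within 100 kb of any of its start sites.

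Both groups came from fetuses made by tetraploid aggregation from an embryonic stem cell clone of the G4 line that was homozygous for the Col2a1-EGFP allele, in which a cassette with a minimal beta-globin promoter and EGFP sits upstream of Col2a1. The limb group held upper, middle and distal limb segments (stylopods, zeugopods and autopods), and the trunk group held the body from neck to tail after removal of the internal organs. Limbs or trunks were pooled, dissociated, sorted by fluorescence and fixed in formaldehyde before chromatin immunoprecipitation with sequencing (ChIP-seq), and each group was 1 library. There was therefore no replicate, no spread between animals and no test, and tissue cannot be told apart from the sequencing lane, since both limb libraries, EGFP- and EGFP+, carry one lane in their file headers and both trunk libraries another. In the trunk EGFP- list the peak names carry another replicate number than the label of the sample, and the label was followed. The limb list held 42947 summits and the trunk list 40004, with medians of 24 reads (range 7 to 234) and 26 reads (range 8 to 257) under a summit. Raw reads had been sampled to a like number per library before trimming, mapping and filtering. The lowest local background, which scales with the reads used in calling, was 1.63 reads per 200 bp in limb and 1.83 in trunk, so more reads entered calling in trunk.

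H3K27ac is laid on nucleosomes beside active promoters and enhancers, and at distal sites it differs more between cell types than at promoters. The EGFP- fraction is a mixture that holds muscle, tendon and other connective tissue, skin, vessels, blood, nerves and bone-forming cells. Along the body axis, positional identity is carried by the Hox genes, transcription factor genes that lie in clusters and whose members near the 3' end of a cluster are used toward the head and those near the 5' end toward the tail and toward the tip of the limb. Limb identity is set by a separate group, among them Tbx5 for the forelimb, Tbx4 and Pitx1 for the hindlimb, and Hand2, which places the posterior signalling centre of the limb bud.

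The label of the fraction was first set against 24 chondrocyte genes. Of their promoters, 8 carried an interval in limb EGFP- cells and 7 in trunk EGFP- cells, against 21 and 20 in the EGFP+ lists. Over all protein-coding genes the shares were 51.6% and 52.7% in limb and trunk EGFP- cells and 54.4% and 52.6% in the EGFP+ cells. Acan, the main cartilage proteoglycan, had no promoter interval in either EGFP- list and 70 and 53 reads in limb and trunk EGFP+ cells. Col2a1 itself had 14 reads in limb EGFP- cells, no interval in trunk EGFP- cells, and 110 and 84 reads in the EGFP+ cells. Sox9, the regulator of the cartilage fate, was marked in all 4 lists, at 35 and 44 reads in limb and trunk EGFP- cells and 103 and 82 in limb and trunk EGFP+ cells. In a bulk sample, fewer cells of a type and less mark per cell cannot be told apart.

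The DNA under 6 tissue-only distal summits is given here, because these are the regions to which the results below return. Each line holds 300 bases centred on the summit, plus strand of GRCm39, with capitals at matches to any of the 20 short transcription factor motifs described further on. The first 2 are among the 3 strongest limb-only distal regions by -log10 p, the other lying at the start of chromosome 14. They lie upstream of Pak3 (limb-only, 52 reads, chrX:142265892-142266191) and Tacc1 (limb-only, 51 reads, chr8:25858487-25858786), both outside protein-coding genes.
Pak3 -35.2 kb: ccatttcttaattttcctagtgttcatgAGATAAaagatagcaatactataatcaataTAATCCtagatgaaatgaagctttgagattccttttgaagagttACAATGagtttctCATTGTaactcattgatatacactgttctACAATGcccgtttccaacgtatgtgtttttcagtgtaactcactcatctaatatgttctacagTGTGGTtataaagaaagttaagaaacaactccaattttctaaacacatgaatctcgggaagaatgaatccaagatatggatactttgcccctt
Tacc1 -126.8 kb: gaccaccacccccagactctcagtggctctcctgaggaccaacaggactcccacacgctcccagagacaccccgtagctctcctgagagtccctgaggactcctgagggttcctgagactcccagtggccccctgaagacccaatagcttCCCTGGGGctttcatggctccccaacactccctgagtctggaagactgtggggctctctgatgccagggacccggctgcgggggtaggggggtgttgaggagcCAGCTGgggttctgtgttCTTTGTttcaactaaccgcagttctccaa
The other 4 were chosen after the values were seen, as tissue-only regions beside limb and Hox genes: the limb-only regions at Tbx5 (35 reads, chr5:119942280-119942579) and Hand2 (31 reads, chr8:57781305-57781604), both intergenic and within long non-coding transcripts, and the trunk-only regions in the Hoxc cluster (52 reads, chr15:102907376-102907675, in an intron of Hoxc5 and Hoxc6) and the Hoxb cluster (49 reads, chr11:96245120-96245419, intergenic, 2.85 kb from a Hoxb2 start site).
Tbx5 -28.3 kb: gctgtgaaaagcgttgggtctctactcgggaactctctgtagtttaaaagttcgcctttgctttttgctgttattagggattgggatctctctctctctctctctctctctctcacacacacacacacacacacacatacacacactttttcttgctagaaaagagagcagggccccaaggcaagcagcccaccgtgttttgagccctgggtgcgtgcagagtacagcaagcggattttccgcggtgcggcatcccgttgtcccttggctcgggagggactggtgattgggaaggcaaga
Hand2 +7.3 kb: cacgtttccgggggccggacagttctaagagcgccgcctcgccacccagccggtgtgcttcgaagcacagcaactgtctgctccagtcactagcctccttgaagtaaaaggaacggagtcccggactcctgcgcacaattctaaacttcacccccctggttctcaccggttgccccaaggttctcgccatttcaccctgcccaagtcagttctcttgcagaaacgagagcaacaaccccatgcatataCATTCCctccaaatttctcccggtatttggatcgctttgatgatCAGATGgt
Hoxc8 +8.6 kb: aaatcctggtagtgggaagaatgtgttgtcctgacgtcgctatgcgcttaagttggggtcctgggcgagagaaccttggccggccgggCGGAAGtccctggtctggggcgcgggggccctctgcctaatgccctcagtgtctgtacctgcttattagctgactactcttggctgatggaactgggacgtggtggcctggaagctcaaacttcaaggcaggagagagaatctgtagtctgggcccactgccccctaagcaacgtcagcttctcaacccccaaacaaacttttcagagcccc
Hoxb2 +2.8 kb: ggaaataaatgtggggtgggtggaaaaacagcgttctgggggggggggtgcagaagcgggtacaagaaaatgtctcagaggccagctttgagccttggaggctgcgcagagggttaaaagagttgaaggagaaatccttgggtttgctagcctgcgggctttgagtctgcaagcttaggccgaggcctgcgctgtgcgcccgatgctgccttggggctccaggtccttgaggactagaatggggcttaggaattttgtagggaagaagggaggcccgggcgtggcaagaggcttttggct
The Pak3 window held 3 matches to the SOX letters and 1 each to the PITX, GATA and RUNX letters, and the Tacc1 window 1 each to the myogenic E-box, SOX core and EBF letters. The Hand2 window matched the neural E-box and TEAD letters and the Hoxc window the ETS letters. The Tbx5 and Hoxb2 windows matched none of the 20.

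Promoters were marked in both tissues far more often than distal sites. Of 16592 limb promoter intervals, 89.0% (exact 95% binomial interval 88.5 to 89.5) were overlapped by a trunk interval, and of 16485 trunk promoter intervals, 88.0% (87.5 to 88.5) by a limb interval. Of 17768 limb distal intervals, 44.6% (43.8 to 45.3) were overlapped, and of 14231 trunk distal intervals, 53.7% (52.9 to 54.5). These intervals, like all others given here, cover counting error only and not differences between animals, dissections or libraries. In the EGFP+ lists, where tissue and lane are confounded in the same way, promoters also lay above distal intervals, with 86.0% and 93.5% for limb and trunk promoters and 49.4% and 59.4% for limb and trunk distal intervals.

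The share was higher for stronger calls. When each list's distal intervals were ranked by -log10 p and divided into 5 groups of equal size, 20.8% of the weakest limb group had a trunk counterpart and 87.8% of the strongest did. In trunk the same shares were 29.4% and 92.0%. At promoters even the weakest group was overlapped at 61.7% in limb and 60.8% in trunk. An interval absent from a list can therefore be a region just under its calling limit.

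**Figure D1:**
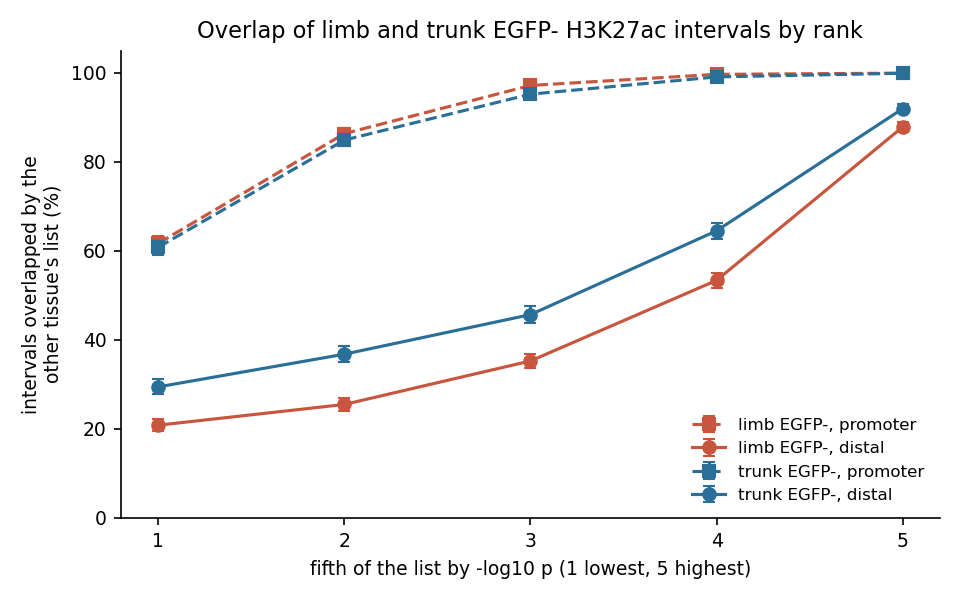
Share of EGFP- intervals overlapped by the other tissue's list (vertical axis, percent) by rank group of the list, 5 groups by -log10 p (horizontal axis, 1 weakest), with exact 95% binomial intervals. Promoter intervals (dashed) lie above distal ones (solid) in each of the 5 groups, and the limb distal share goes from 20.8% to 87.8%.

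Among distal regions, 9850 (41.8%) were limb-only, 6592 (27.98%) trunk-only and 7118 (30.2%) shared. Among promoter regions the counts were 1826, 1976 and 14059. Tissue-only distal regions were narrow and weak beside shared ones, with a median width of 248 bp in limb and 253 bp in trunk against 537 bp, and a median of 13 and 14 reads against 25 when the higher of both tissues is taken for a shared region. For 39.6% of the limb-only and 54.2% of the trunk-only distal regions, the lower exact Poisson bound of the reads lay above the lowest read count called in the other list. An interval of the other tissue began or ended within 1 kb of 21.3% of the limb-only and 23.6% of the trunk-only distal regions.

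The excess of limb-only over trunk-only distal regions, 59.9% (59.2 to 60.7) of all tissue-only ones, moved with the length of the lists. With the 20000 intervals of highest -log10 p from each list, it was 51.5% (50.1 to 52.9). Over the autosomes and chromosome X, the limb-only share ranged from 52.7% on chromosome 7 to 65.0% on X.

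The classes also differed in place. Limb-only distal regions lay a median of 39.3 kb from the nearest protein-coding start site, trunk-only ones 31.3 kb and shared ones 22.7 kb. Exons held 5.27% (4.84 to 5.73) of limb-only, 7.83% (7.19 to 8.50) of trunk-only and 10.8% (10.1 to 11.5) of shared distal regions, while introns held 43.6%, 46.5% and 39.3%. Chondrocytes of the same tissues, which entered neither list, were set against them: limb EGFP+ intervals overlapped 26.1% (25.2 to 26.96) of the limb-only and 18.7% (17.8 to 19.7) of the trunk-only distal regions, and trunk EGFP+ intervals 19.9% (19.1 to 20.7) and 19.7% (18.7 to 20.7). The limb chondrocytes thus shared limb-only regions more often than trunk-only ones, and for the trunk chondrocytes the 2 intervals overlapped. Shared distal regions were overlapped at 64.4% and 63.3%.

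At the level of genes, promoters marked in 1 tissue were few. Of 21581 protein-coding genes, 10666 (49.4%) had a promoter interval in both EGFP- lists, 9746 in neither, 468 (2.17%) in limb only and 701 (3.25%) in trunk only. The limb-only promoters had a median of 14 reads (7 to 60), and 95 of them reached 20 reads. The trunk-only promoters had a median of 15 reads (8 to 110), and 196 reached 20. In the EGFP+ lists, 93 of the 468 limb-only promoters (19.9%, 16.3 to 23.8) were again limb-only and 26 (5.56%, 3.66 to 8.03) were trunk-only. Of the 701 trunk-only promoters, 65 (9.27%, 7.23 to 11.7) were again trunk-only and 100 (14.3%, 11.8 to 17.1) were limb-only. Limb-only was the larger of these 2 EGFP+ classes among the other genes too. It held 180 genes against 79 trunk-only ones among the 10666 marked in both EGFP- lists. Among the 9746 marked in neither, the counts were 358 and 167. Within 100 kb of their start sites, 6799 genes (31.5%) had more limb-only than trunk-only distal regions and 4357 (20.2%) had more trunk-only ones. Neighbouring genes share regions, so genes are not independent of each other.

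Where a promoter carried an interval in both lists, the read counts under its highest summits were set side by side. Here and below, reads were not scaled for the depth used in calling, which was higher in trunk. The lowest local background was 1.63 reads per 200 bp in limb and 1.83 in trunk. Unscaled counts were higher in limb at 5594 of the 10666 genes (52.4%), and the median log2 ratio of limb over trunk reads was 0.04. The exact 95% Poisson intervals of the counts did not overlap at 177 genes (1.66%) with limb higher and at 84 genes (0.788%) with trunk higher.

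Among the 13 gene lists, the Hox genes lay farthest from the values of all genes, mostly toward the trunk. Of 39 Hox genes, 13 had a promoter interval in trunk only, 1 in limb only, 8 in both and 17 in neither, beside 3.25%, 2.17% and 49.4% of all genes in the first 3 classes. The Hoxb genes, which pattern the hindbrain and anterior trunk, had Hoxb2 at 50 reads, Hoxb3 at 51, Hoxb6 at 34 and Hoxb9 at 16 in trunk, with no limb interval at any of these. In the Hoxc cluster, used in the thoracic and lumbar regions and in the hindlimb, Hoxc4 had 30 reads in trunk, Hoxc6 41, Hoxc8 35, Hoxc10 41 and Hoxc13 19, again with no interval in limb EGFP- cells. Hoxd3 (45 reads), Hoxd8 (21), Hoxd10 (19) and Hoxa5 (33) completed the trunk-only promoters. In EGFP+ cells, Hoxb2, Hoxb3, Hoxb6, Hoxc4, Hoxc6, Hoxc8 and Hoxc13 were trunk-only too. Hoxc10 was marked there in both tissues, at 47 reads in limb and 48 in trunk, as was Hoxd10 at 35 and 24. Hoxc9, Hoxd9 and Hoxd12, without an EGFP- interval, were marked in limb EGFP+ cells alone.

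The promoters marked in limb EGFP- cells belonged to the Hoxa and Hoxd clusters, with 1 exception. Hoxd13, needed for the digits, was the limb-only promoter, at 29 reads in limb EGFP- cells and 58 in limb EGFP+ cells. Hoxa10 had 73 reads in limb and 36 in trunk (log2 ratio 1.02), and Hoxa11, which acts in the middle segment of the limb, 50 and 14 (1.84). For both the exact Poisson intervals did not overlap. Hoxd11, at 31 and 16 reads, had intervals that did. The more anterior genes of the Hoxa cluster had more reads in trunk, with 35 reads in limb and 62 in trunk at Hoxa3, 15 and 27 at Hoxa4, and 30 and 54 at Hoxa7, all with overlapping intervals. Hoxb7 was the exception outside the Hoxa and Hoxd clusters, with 12 reads in limb and 42 in trunk (log2 ratio -1.81, intervals apart).

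**Figure D2:**
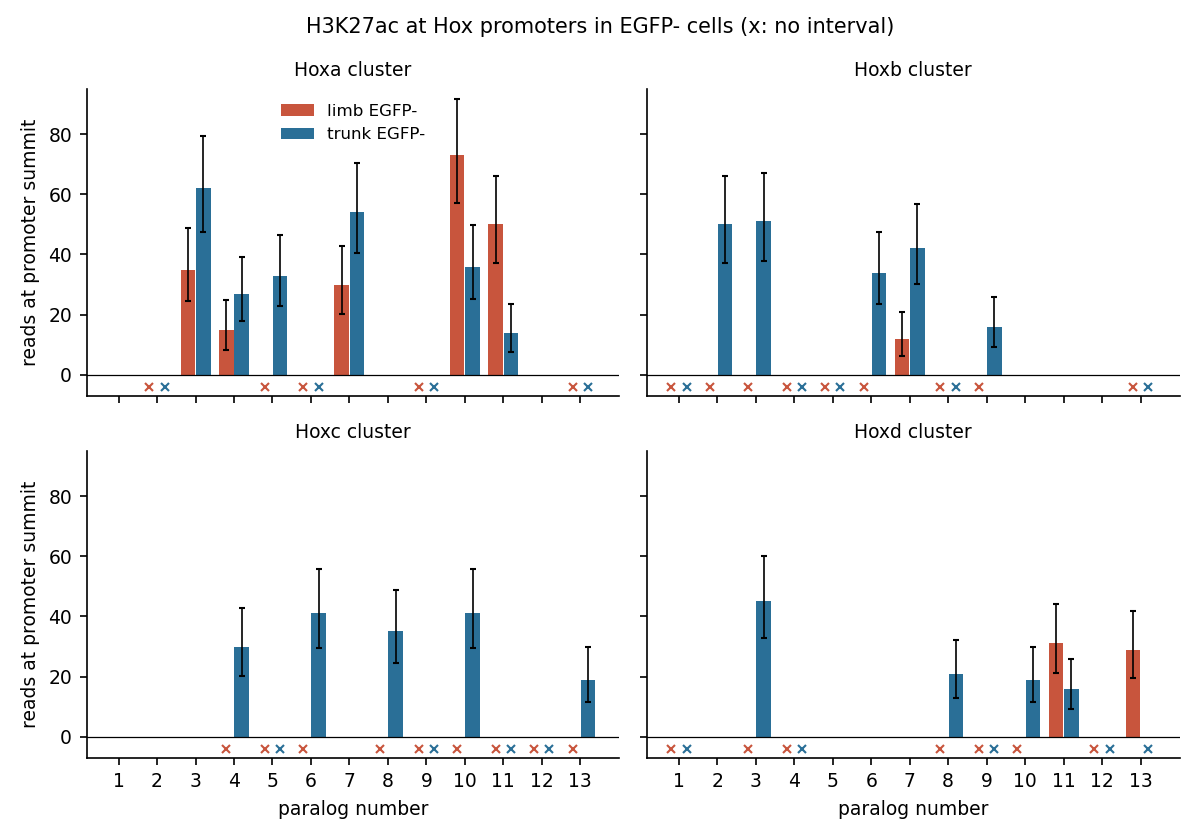
Reads under the highest promoter summit (vertical axis) of Hox genes by paralog number (horizontal axis), with exact 95% Poisson intervals; a cross marks a gene without an interval in that list. Trunk bars stand across the Hoxb and Hoxc clusters, while limb is higher at Hoxa10, Hoxa11 and Hoxd11 and alone at Hoxd13.

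Distal regions around the Hox genes had the same direction. Within 100 kb there were 7 limb-only, 34 trunk-only and 12 shared distal regions. Limb-only regions thus made up 17.1% (7.15 to 32.1) of the tissue-only ones, against 58.3% (57.4 to 59.2) for all genes. More trunk-only than limb-only regions lay near 38 of the 39 genes, beside 20.2% of all genes. Genes of a cluster share regions, so the 38 are not independent of each other. The excess came from the Hoxb cluster (2 limb-only, 13 trunk-only) and the Hoxc cluster (2 and 16), whereas Hoxa had 2 and 2 and Hoxd 1 and 3. Within 500 kb of the genes, where the counts were 37 and 49, the limb-only share was 43.0%. With a fold of at least 4, only 2 limb-only and 3 trunk-only regions were left within 100 kb (exact interval of the limb-only share 5.27 to 85.3%), which held the value of all genes. In the Hoxc cluster the shared region 9.46 kb from the Hoxc8 start site, next to the printed window, had 22 reads in limb and 69 in trunk.

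The height of these calls depended on the measure. From the first to the last gene, the Hoxb cluster (chr11:96085106-96259082) held 5 limb and 19 trunk intervals covering 1496 and 7055 bp, and the Hoxc cluster (chr15:102829538-102945278) held 4 and 15 covering 1106 and 6355 bp. The median local background under the trunk intervals was 13.4 reads per 200 bp in Hoxb and 15.1 in Hoxc, against 5.3 over the whole trunk list. An interval there needed many reads for a modest fold: at the Hoxa7 promoter 54 trunk reads over a background of 21.9 gave a -log10 p of 8.65. When intervals under a fold of 4 were left out, no Hox promoter was trunk-only and 2 were limb-only, whereas among intervals of at least 20 reads 13 were trunk-only and 3 limb-only, 10 of the former being among the 13 named above. When a limb interval within 1 kb counted as shared, 11 of the 13 stayed trunk-only, all but Hoxb2 and Hoxc6.

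Meis1 and Meis2, cofactors of Hox proteins that mark the proximal limb, were promoter-marked in both tissues with more reads in trunk. Meis2 had 22 reads in limb and 65 in trunk (log2 ratio -1.56, intervals apart), with 17 and 41 in the EGFP+ cells. Meis1 had 45 and 73, with overlapping intervals, and 0 limb-only, 3 trunk-only and 2 shared distal regions.

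Limb patterning genes were marked more often in limb. Of 35 genes, 6 had a promoter interval in limb only, 2 in trunk only, 7 in both and 20 in neither, beside 2.17%, 3.25% and 49.4% of all genes in the first 3 classes. The forelimb gene Tbx5 had 34 reads in limb EGFP- cells and 36 in limb EGFP+ cells, and no interval in either trunk list. Hand2 had 40 and 47 and Lhx9, a LIM-homeodomain gene of limb mesenchyme, 29 and 43, also with none in trunk. The hindlimb gene Tbx4 had 35 reads in limb EGFP- cells and none in trunk EGFP- cells, but 59 in limb and 11 in trunk EGFP+ cells. Bmp2, a growth factor, and Dlx5, a homeobox gene of the limb ridge, had 19 and 13 reads in limb EGFP- cells and were marked in both EGFP+ lists. All 6 stayed limb-only when an interval within 1 kb counted as shared, and 4 of them did among intervals of at least 20 reads. With -log10 q of at least 5, and equally with 20000 intervals per list, the list had 4 limb-only and 3 trunk-only promoters. With a fold of at least 4 it had 4 and 0. The trunk-only promoters were Irx5 at 35 reads and Sall3 at 10. Of the 20 genes without an EGFP- interval, 9 had one in limb EGFP+ cells alone, among them Prrx1, Msx1 and Pitx1, so a missing interval in this mixed fraction does not show that the mark was missing from every limb cell.

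Around these genes lay 58 limb-only, 26 trunk-only and 37 shared distal regions, a limb-only share of 69.0% (58.0 to 78.7) whose interval held the 58.3% of all genes. With 20000 intervals per list the share was 55.2%. Tbx5 stood alone in having 9 limb-only and no other distal regions within 100 kb, spread from 69.0 kb before to 80.8 kb after its start sites, with 12 to 35 reads each. The 3 regions of a group near -28 kb, of which the middle one is printed above, had 25, 35 and 28 reads, and each was overlapped by a limb EGFP+ interval and by no trunk EGFP+ interval. All 9 stayed limb-only when a trunk interval within 1 kb counted as shared. Hand2 had 5 limb-only, 0 trunk-only and 3 shared regions, with 31 reads at the printed one. Wnt5a, which drives limb outgrowth, had 3 limb-only and no other distal regions, and Irx3 had 0, 3 and 1.

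**Figure D3:**
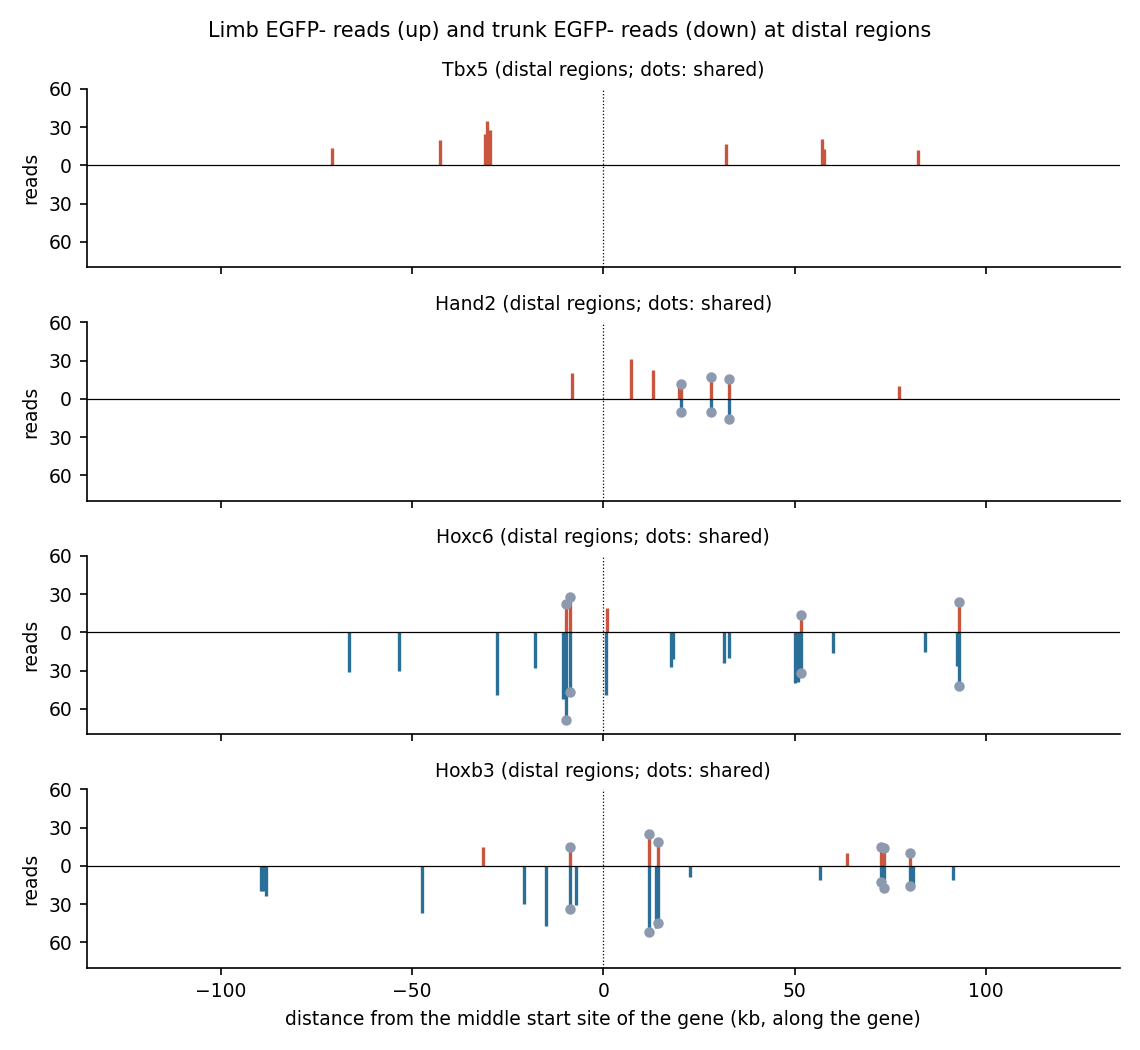
Reads under distal regions around Tbx5, Hand2, Hoxc6 and Hoxb3 (limb upward, trunk downward) against the distance in kb from the middle start site of each gene; grey dots mark shared regions. All 9 Tbx5 regions point upward, and most regions at Hoxc6 and Hoxb3 point downward.

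In the EGFP- lists, axial mesenchyme genes were not the mirror image of the limb genes. Of 23 genes of the sclerotome and axial mesenchyme, 18 had no promoter interval in either EGFP- list, beside 9746 of all 21581 genes. Among the 18, Pax1, Uncx, Foxf1, Foxd1 and Alx1 had one in trunk EGFP+ cells alone. In the EGFP+ lists, 9 of the 23 were marked in limb and 14 in trunk, beside 54.4% and 52.6% of all genes. Foxc1, a regulator of paraxial mesoderm, was trunk-only at 23 reads but marked in both EGFP+ lists at 96 and 76. Zic4 was trunk-only in both fractions, at 33 reads in EGFP- and 25 in EGFP+ cells. Tbx18 was limb-only in both fractions, at 30 and 37 reads. The distal regions counted 18 limb-only and 16 trunk-only.

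Of the 13 lists, tendon and connective tissue genes had the largest share of promoters marked in EGFP- cells. It was 72.7% in limb and 69.7% in trunk, beside 51.6% and 52.7% of all genes. Of 33 tendon and connective tissue genes, 22 had a promoter interval in both lists, 2 in limb only, 1 in trunk only and 8 in neither, beside 49.4%, 2.17% and 3.25% of all genes in the first 3 classes. The fibrillar collagen genes were marked strongly in both, with 78 reads in limb and 50 in trunk at Col1a1, 82 and 56 at Col1a2, and 75 and 56 at Col3a1. The transcription factor gene Osr2 (41 and 24) was also higher in limb, whereas Twist2 had 28 and 41. Tcf4 (95 and 65) was counted in the list by its symbol, but its promoter did not single out the EGFP- cells. It had 85 reads in limb and 57 in trunk EGFP+ cells. Reads were higher in limb at 16 of the 22 shared promoters, with a median log2 ratio of 0.39 beside 0.04 over all genes, but the exact intervals overlapped at every one of the 22. The limb-only promoters were Tgfbi (30 reads) and Fmod, a tendon proteoglycan gene (16 reads), both marked in both EGFP+ lists, and Col14a1 was trunk-only at 18 reads. Distal regions counted 93 limb-only, 50 trunk-only and 77 shared, and 65.0% (56.6 to 72.8) of the tissue-only ones were limb-only. Limb-only and trunk-only regions numbered 9 and 2 at Col1a1 and 7 and 0 at Col5a1.

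Skeletal muscle genes had promoter intervals in both lists at 9 of 35 genes, in trunk only at 4 and in limb only at 1, beside 49.4%, 3.25% and 2.17% of all genes. The troponin gene Tnnc1 had 102 reads in limb and 74 in trunk, and the atrial and embryonic myosin light chain gene Myl4 100 and 98. Both were also marked at 95 to 110 reads in the EGFP+ cells. The fast troponin gene Tnnt3 had 14 and 20 reads. The limb-only promoter was Chrng, an acetylcholine receptor subunit gene, at 11 reads. Lbx1, which marks muscle precursors that migrate into the limb, was trunk-only at 12 reads. Also trunk-only were Six4 at 20 reads, Chrna1, another receptor subunit gene, at 15 and Neb, which encodes nebulin, at 13. Limb-only and trunk-only distal regions numbered 5 and 4 near Lbx1, 2 and 3 near Six4, 6 and 2 near Chrna1, and 0 and 2 near Neb. Around all 35 genes lay 71 limb-only and 37 trunk-only distal regions (65.7%, 56.0 to 74.6). The direction differed between regulators of the same lineage: Myog had 8 limb-only, 0 trunk-only and 4 shared regions, and Myod1 had 0, 4 and 0. The 8 Myog regions had 10 to 21 reads.

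The lists of bone, vessel and organ mesenchyme genes lay near the value for all genes. Osteoblast genes had 16 limb-only and 9 trunk-only distal regions, with the osteoblast regulator Sp7 limb-only at its promoter (16 reads) and the phosphatase gene Alpl trunk-only (20 reads). Endothelial genes had 48 and 30, with limb-only promoters at Erg (14 reads) and at the lymphatic gene Lyve1 (13 reads) and 7 promoters in both lists. Fli1, an endothelial ETS factor, had 6 limb-only and no trunk-only distal regions. Smooth muscle, mesothelium and organ mesenchyme genes had 25 and 16, with Six2 limb-only at its promoter (23 reads).

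The neural, blood and skin lists were nearer to an even split of their distal regions, and their promoters were seldom marked. Central nervous system genes had no promoter interval at 43 of 52 genes and 26 limb-only against 23 trunk-only distal regions. Of their promoters, 1 was limb-only, 3 were trunk-only and 5 were in both lists, beside 2.17%, 3.25% and 49.4% of all genes. Gata3 (9 reads) was limb-only. The neuronal genes Tubb3 (12 reads), Nova2 (14 reads) and Pou3f3 (14 reads) were trunk-only. Among the 5 promoters in both lists, 2 had more reads in limb and 3 in trunk, one of these being Elavl4 with 8 and 21. Peripheral nervous system and neural crest genes had 27 and 28 regions, and the neural crest and epidermal factor Tfap2a was limb-only at 23 reads. Blood and immune genes had 29 and 29, of which Nfe2, an erythroid factor, had 0 limb-only and 6 trunk-only. Nfe2 lies on the stretch of chromosome 15 that holds the Hoxc cluster. Skin epithelium genes had 33 and 35 (48.5%, 36.2 to 61.0), with limb-only promoters at Grhl3 (19 reads), Esrp1 (13 reads), Grhl2 (11 reads) and Tfap2a and trunk-only promoters at Cldn4 (20 reads), Hoxc13 (19 reads) and Tfap2c (13 reads). Grhl2 was no longer limb-only when a trunk interval within 1 kb counted as shared. Grhl3 had 5 limb-only and 0 trunk-only regions while its relative Grhl2 had 0 and 5. Among intervals of at least 20 reads, the skin list had 4 limb-only and 17 trunk-only regions. This list includes Hoxc13 of the Hoxc cluster, which had 1 limb-only and 6 trunk-only regions within 100 kb before that limit. Of the 13 lists, the Hox clusters alone had an exact interval that did not hold the 58.3% of all genes.

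**Figure D4:**
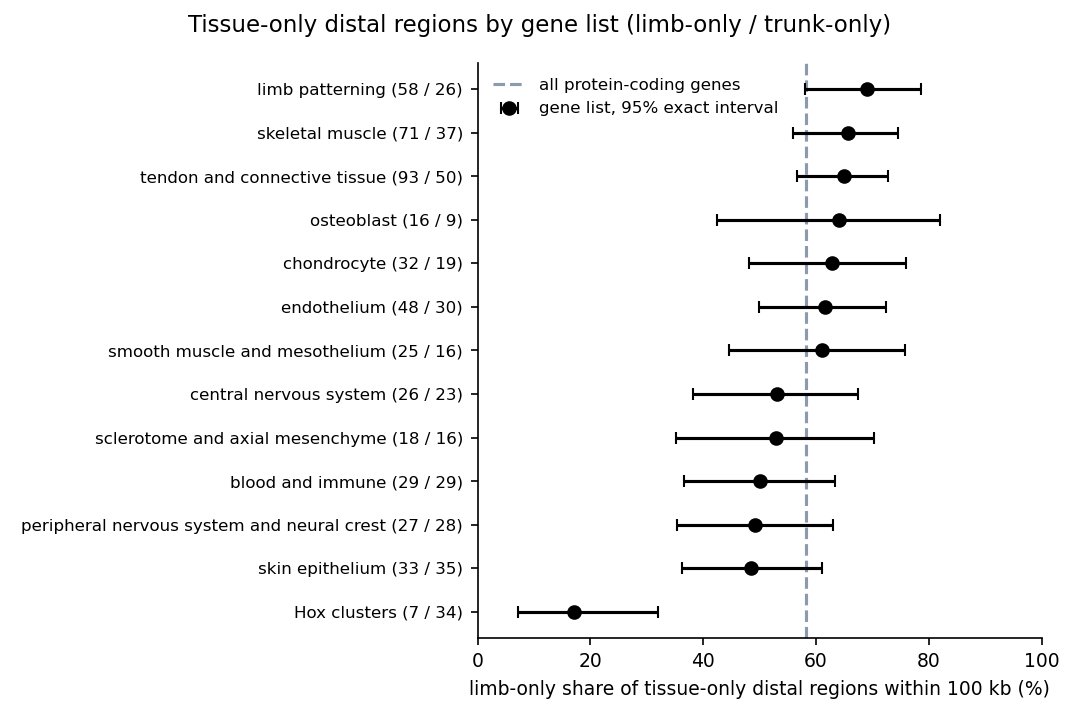
Limb-only share of the tissue-only distal regions within 100 kb of the genes of each list (horizontal axis, percent; counts in brackets), with exact 95% binomial intervals and the share over all protein-coding genes as a dashed line. The Hox clusters lie at 17.1%, below the line at 58.3%, and limb patterning genes at 69.0%.

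Over all genes, the tissue-only promoters of highest -log10 p were mostly not genes of patterning. In limb they were Lipe (56 reads), which encodes hormone-sensitive lipase, Mfsd13a (57), Cnga4 (60), Zfp748 (41), Pdxp (40), Flt3l (26), Tbc1d9 (24), Rgs9 (27), Ppm1h (32) and Pdpn (34), which encodes podoplanin of lymphatic vessels and fibroblasts. In trunk they were Nbeal2 (92 reads), Poglut3 (84), Stk35 (62), Agfg1 (39), Rnf169 (50), Cnih1 (45), Xpr1 (38), Mllt1 (44), Usp12 (43) and Sts (26), a steroid sulfatase gene. An interval of the other tissue lay close to most of these. With such an interval within 1 kb counted as shared, 5 of the 10 limb genes were no longer limb-only (Lipe, Mfsd13a, Cnga4, Zfp748 and Pdxp), and only Agfg1 and Sts of the 10 trunk genes remained trunk-only. Over all genes, 405 of the 468 limb-only and 594 of the 701 trunk-only promoters remained under that rule. Of the Hox, patterning and cell type genes in the 13 lists, 23 of 24 limb-only and 28 of 31 trunk-only promoters remained.

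By distal regions, the genes with the largest limb excess were Tgfbr3, a co-receptor for transforming growth factor beta (17 limb-only, 4 trunk-only and 13 shared), Pard6b (11 and 1), Haao (10 and 0), Filip1l (12 and 3), Foxn3 (9 and 0), Pde4d (9 and 0), Tbx5 (9 and 0), Mcu (11 and 3), Tmpo (10 and 2) and Snai1 (9 and 1). The trunk excess was led by Hoxc5 (1 limb-only and 16 trunk-only) and Hoxb3 (2 and 12), and then by Prrc2b (0 and 7), Mical2 (2 and 8), Kcne4 (1 and 7), Gtdc1 (0 and 6), Hnrnpa1 (0 and 6), Maml3 (2 and 7), Sox8 (2 and 7) and Gramd1b (1 and 6). Hnrnpa1 lies on that same stretch of chromosome 15. Tgfbr3 and Filip1l turned to a trunk excess with 20000 intervals per list, and Mical2 and Maml3 to a limb excess. The excess vanished with 20000 intervals per list at Pde4d (0 and 0), Foxn3 (1 and 1) and Gtdc1 (0 and 0), and equally with -log10 q of at least 5, whereas Tbx5 had 3 and 0 under both.

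The strongest single distal regions stood at unlike kinds of places. In limb they included the printed regions at Pak3 and Tacc1, a region with 97 reads 5.65 kb upstream of Kdm6b, which encodes a histone demethylase, and one with 59 reads in an intron of Fstl1, a secreted protein gene of mesenchyme. A further 3 of the 10 lay near the first assembled bases of chromosomes 14 (112 reads) and 9 (65 reads at each of 2 regions), where the nearest protein-coding start site was 308 to 525 kb away. In trunk, 5 of the 10 lay 0.659 to 0.889 kb inside genes, just past the promoter window, among them those at Herpud2 (52 reads), Exosc6 (36), Sfpq (53) and Lnpep (63). The 2 regions of highest read count, 114 and 116 reads, stood beside a ribosomal RNA gene copy on chromosome 17, and both were overlapped in both EGFP+ lists. In all, 19 of these 20 regions were overlapped by an interval of limb EGFP+ cells. Over all distal regions of any strength, the share was 26.1% of the limb-only and 18.7% of the trunk-only ones.

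Shared distal regions held their rank loosely. The Spearman correlation of the within-list percentile of -log10 p was 0.60 over 7118 distal regions and 0.77 over 14059 promoter regions, across regions that share the 2 libraries and their depth. The largest rank differences toward limb were a region 21.5 kb upstream of the mitochondrial calcium uniporter gene Mcu (43 reads in limb and 14 in trunk) and introns of Samd4 (42 and 15), Gxylt2 (43 and 19), Itgb4 (29 and 13) and Irs1 (58 and 31). Toward trunk they were introns of Pkig (14 and 39), Zmiz1 (34 and 65), Nck2 (17 and 37) and Ttll5, 41.7 kb from the growth factor gene Tgfb3 (13 and 31), and a UTR of Ppp1r3e (8 and 24). Among these 10 regions, the exact Poisson intervals did not overlap at Mcu, Samd4, Gxylt2 and Irs1 toward limb and at Pkig and Zmiz1 toward trunk.

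The sequence under the distal summits differed in base composition. In windows of 150 bp on each side of a summit, GC content averaged 47.4% in limb-only regions (SD 6.15 over regions), 50.1% in trunk-only (6.36) and 51.6% in shared ones (6.404), and the mean number of CpG dinucleotides was 4.23, 5.23 and 7.30. The 20 motifs were short letter strings searched on both strands, and no string lies within another. Over all 23560 distal windows, the strings of homeobox factors were found in 4.26% for posterior HOX (CAATAAA), 5.01% for other homeodomains (TAATTA), 8.42% for PITX (GGATTA), 1.27% for POU (ATGCAAAT) and 21.2% for MEIS (TGACAG). Those of helix-loop-helix and related factors were in 22.3% for the myogenic E-box (CAGCTG), 25.6% for the neural E-box (CAGATG) and 11.3% for EBF (CCCNNGGG). The T-box string (AGGTGT) was in 13.2%, SOX (ACAATG) in 13.5%, SOX core (ACAAAG) in 26.5%, the string of GATA factors (AGATAA) in 12.2%, ETS (CGGAAG) in 7.35% and RUNX (TGTGGT) in 19.6%. The TEAD string (GGAATG) was in 18.5%, AP-1 (TGANTCA) in 8.39%, the NFI half-site (TTGGCA) in 18.4%, MEF2 (CTATTTA) in 2.81%, the p53 family half-site (CATGTC) in 12.3% and ZIC/GLI (CCTGCTG) in 11.6%.

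The MEIS string was found in 23.5% (22.5 to 24.6) of trunk-only, 20.6% (19.8 to 21.4) of limb-only and 19.9% (18.99 to 20.9) of shared windows. Among windows with a GC content of 40 to 50%, where base composition was close, it was still in 23.5% (22.0 to 25.1) of the trunk-only and 20.3% (19.2 to 21.4) of the limb-only windows. In windows of 50 bp on each side, the shares were 8.30% (7.64 to 8.99) and 7.46% (6.95 to 7.999), with overlapping intervals. The myogenic E-box string was in 24.7% of trunk-only and 20.6% of limb-only windows, but in 19.8% and 18.8% within that GC range, with overlapping intervals, and in 8.24% and 6.85% of the shorter windows, with intervals apart. The ZIC/GLI string was in 13.3% and 10.3%, in 9.32% and 8.26% within the range, with overlapping intervals, and in 4.85% and 3.49% of the shorter windows, with intervals apart. The homeodomain string was more frequent in limb-only windows, at 6.14% against 4.48%. Within the range the shares were 6.92% (6.24 to 7.64) and 5.80% (4.98 to 6.71), with overlapping intervals. In the shorter windows they were 1.80% (1.54 to 2.08) and 1.41% (1.14 to 1.73), also with overlapping intervals. The ETS string was most frequent in shared windows, at 9.99%, and the T-box string had 13.9% and 13.7% in the limb-only and trunk-only windows. A match says only that these letters occur in the window.

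**Figure D5:**
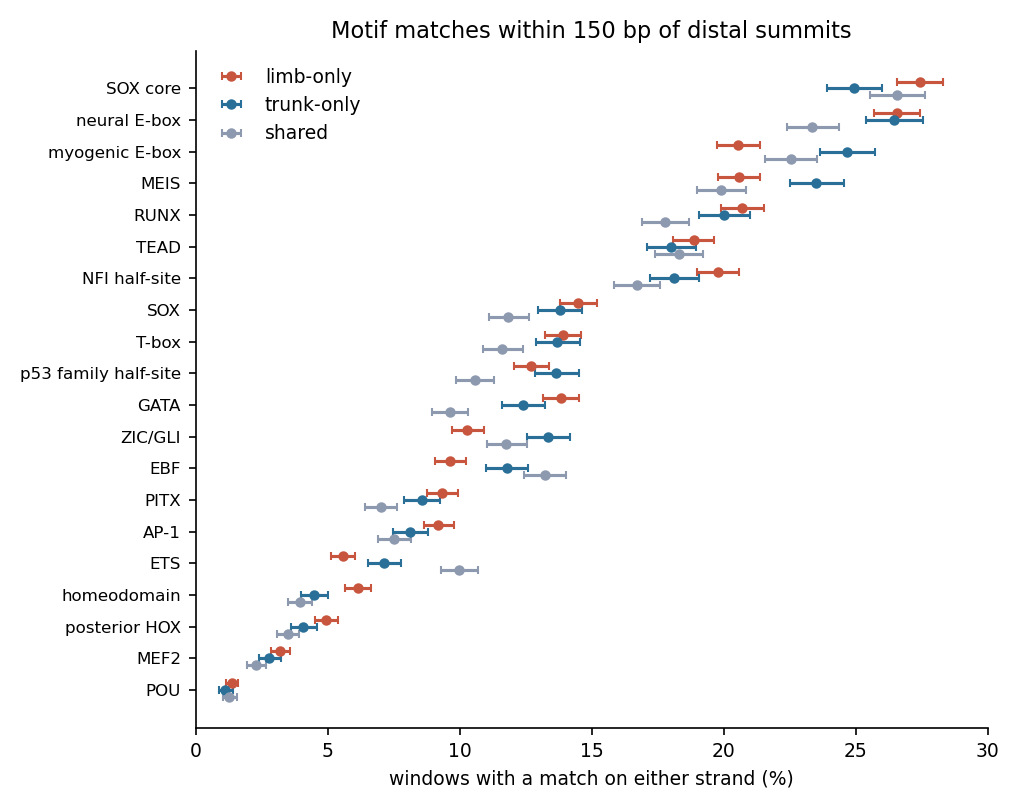
Share of distal windows with a match to each motif on either strand (horizontal axis, percent) for limb-only, trunk-only and shared regions, with exact 95% binomial intervals. The MEIS, myogenic E-box and ZIC/GLI strings lie further right in trunk-only than in limb-only regions, and the homeodomain string the other way.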

How the data were processed

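The authors drew a like number of raw reads per library and trimmed, filtered and aligned them to GRCm39, with cutadapt 1.18, Bowtie2 2.3.5.1, SAMtools and MACS2 2.2.7.1 in the submitters' processing notes. MACS2 called peaks per library, without a model and with reads extended to 200 bp; a control library and a q limit were not given in the sources used here. The deposited lists hold a score, a fold over the local background (a ratio), a −log10 p and a −log10 q per summit. From the authors' fold and −log10 p, whole reads and the local background were recovered at 100% of summits.

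Intervals were joined, overlapped and annotated with GENCODE genes of GRCm39 (67388 start sites) in Python 3.11.15 with numpy 2.4.6, pandas 2.3.3, scipy 1.17.1 and matplotlib 3.10.9, after a check on simulated data. A promoter interval was assigned to a gene by its highest −log10 p, and a list's reads are those under that summit. With 1 library a group no test was possible; shares have exact (Clopper-Pearson) and reads exact Poisson intervals at 95%.

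Genes were named if they were in the 13 lists (398 genes), among the 10 tissue-only promoters of highest −log10 p per direction, or among the 10 genes per direction with the largest difference of limb-only and trunk-only distal regions, at most 1 gene per 200 kb. Regions were named if among the 10 strongest tissue-only per direction or the 5 shared ones per direction with the largest rank difference. Members, lists and rules were chosen with earlier results of these data known. Each result was recomputed with −log10 q of at least 5, 20000 intervals per list, a fold of at least 4, at least 20 reads, overlap of 50% of the shorter interval, other-list intervals within 1 kb as shared, promoters of 1 kb on each side and autosomes alone, and gene results also with windows of 50 and 500 kb. The labels name 2 sonicators and the study's methods 1 of these; read length was not given per library in the sources used here. Some genes and 1 sequence that these rules would name are not reported here.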

Additional observations from a re-analysis of the deposited data

Results flagged for a closer look

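At 26 genes the tissue that carried a promoter interval was limb in the EGFP- lists and trunk in the EGFP+ lists, and at 100 genes it was trunk in the EGFP- lists and limb in the EGFP+ lists. Limb-only was also the larger EGFP+ class among genes marked in both EGFP- lists, with 180 genes against 79 trunk-only ones. Among genes marked in neither EGFP- list, the counts were 358 and 167. The difference between the fractions was not tested, as each list is 1 library. Among the 26 were Rin3, with 22 reads in limb EGFP- and 37 in trunk EGFP+ cells, and Gata3, with 9 and 11. Among the 100 were Cnih1, with 45 reads in trunk EGFP- and 39 in limb EGFP+ cells, Setbp1, with 34 and 53, and the limb patterning gene Irx5, with 35 and 13. These genes were chosen after their values were seen.

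Outside chromosomes 1 to 19, X and Y, on sequence that no comparison used, 43 limb EGFP- and 47 trunk EGFP- intervals were listed. They lay on 8 sequences in limb and 7 in trunk, 7 of them the same.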

How the results depend on the processing

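The shares moved with the alternatives while promoters stayed above distal intervals in each. For limb promoter, trunk promoter, limb distal and trunk distal intervals in turn, the overlapped shares were 88.1%, 88.8%, 50.04% and 63.9% with −log10 q of at least 5, 90.001%, 86.8%, 57.3% and 57.7% with 20000 intervals per list, 87.7%, 86.9%, 40.7% and 49.3% with overlap of 50% of the shorter interval, and 96.1%, 94.5%, 56.4% and 64.6% with intervals within 1 kb as shared. With a fold of at least 4 they were 83.2% for limb promoter and 35.8% for limb distal intervals, with at least 20 reads 90.9% for limb promoter, 62.9% for limb distal and 67.9% for trunk distal intervals, and with promoters of 1 kb on each side 87.5% for trunk promoter, 41.9% for limb distal and 52.2% for trunk distal intervals. The limb-only share of tissue-only distal regions was 65.2% (−log10 q), 51.5% (20000 intervals), 69.4% (fold) and 56.5% (20 reads). The limb-only share of genes with a promoter interval in 1 tissue was 44.2%, 33.9% and 31.6% with −log10 q, 20000 intervals and 20 reads, and turned to 55.8% with the fold, where 798 promoters were limb-only and 633 trunk-only; the cause was not tested. Distal regions turned to a trunk excess of −2 (20000 intervals) and −1 (fold) at Tgfbr3 and −1 (20000 intervals) at Filip1l, and to a limb excess of 3, 2, 3 and 1 (−log10 q, 20000 intervals, fold, 20 reads) at Mical2 and of 2, 1 and 4 (−log10 q, 20000 intervals, fold) at Maml3. Of the other values, 102 of 200 distal differences of named genes and 341 of 525 promoter classes of named genes stayed the same, 113 of 130 list shares of distal regions and 124 of 182 list counts of promoters stayed within their intervals or 1.5 times, and all 60 motif shares moved with windows of 50 bp on each side. Overlap of 50% of the shorter interval could not be applied to promoters of genes. No paired analysis was possible because each group was 1 library, and none could be left out.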
